A study of Mus musculus with 2 samples.

Results

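The 10 genes described here encode transcription factors that build and maintain photoreceptors of the mouse retina: Nrl, Nr2e3, Crx, Otx2, Rorb, Esrrb, Mef2d, Neurod1, Thrb and Rxrg. They were chosen by name from 32285 genes, and their spliced, ambiguous and unspliced UMIs (unique molecular identifiers, each standing for 1 captured RNA molecule) were counted in droplets named as rods, cones or bipolar cells. Retinae came from 2 groups of wild type mice aged 6 to 9 weeks, and each group gave 1 single-cell library from the pooled retinae of 3 to 5 mice. All mice carried floxed Tgfbr2 alleles with no Cre stated, a Balb-C/CD1 background and the L450 variant of RPE65. Control mice spent 18 h in darkness, and light damage mice spent the same time in darkness before 30 min of white light at 5000 lux and 6 h in dim light. With 1 library per group no difference could be tested against a spread between replicates, and every interval below is a 95% interval of counting error only.

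Photoreceptor identity is set by a small circuit of such factors. The homeodomain proteins OTX2 and CRX open the photoreceptor program, RORB acts upstream of NRL, and NRL together with its target NR2E3 turns on rod genes and, through NR2E3, holds cone genes down. NEUROD1, MEF2D and ESRRB work with CRX in mature photoreceptors, whereas the thyroid hormone receptor THRB and its partner RXRG are known for setting the opsin pattern of cones.

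Droplets were kept with at least 1464 UMIs in the control and 1614 UMIs in the light damage library, which left 3669 and 5593 droplets. Rods were divided by the share of their UMIs that were unspliced. Rods with under 15% are called cytoplasm-rich, those with at least 40% nucleus-rich and the remainder intermediate. The control library held 2315 cytoplasm-rich, 353 intermediate and 608 nucleus-rich rods, and the light damage library held 1880, 426 and 2743. Cones numbered 134 and 83 droplets and bipolar cells 28 and 18, and no droplet was named as an amacrine, ganglion or horizontal cell. All 6 rod markers were detected in each rod class, where they made up between 3.99% and 11.5% of spliced and ambiguous UMIs. Levels are given as spliced and ambiguous UMIs per 1000000 such UMIs of the class (CPM), on which the levels of different genes are not compared. The libraries shared 7 barcodes. Xist, which is transcribed in female cells, had 3149 UMIs in nucleus-rich rods of the control library and 2 in those of the light damage library, so the sex of the pooled mice and the light cannot be told apart. Fewer molecules per cell and another mixture of cells within a class cannot be told apart in summed counts either.

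All 10 genes had a promoter window in the RefSeq table (assembly GRCm38.p6). The sequences of 3 of them are shown because they are the genes whose RNA was highest above control (Neurod1), furthest below control (Nr2e3) and closest to control (Crx) in cytoplasm-rich rods after light damage. Each run is the part of the 250 bases before the transcription start that no annotated exon covers, read 5′ to 3′ on the strand of the gene. The runs are chr2:79456786-79456886 for Neurod1, chr9:59950118-59950329 for Nr2e3 and chr7:15879969-15880205 for Crx, all on the minus strand. The Nr2e3 run lies inside the GENCODE span of the gene. The window of Nrl lay wholly within exons of annotated transcripts and is not printed. Capitals mark matches, on either strand, to the CRX and OTX motif TAATCC, the E-box CANNTG, the NRL motif TGCTGA and the nuclear receptor motif AGGTCA.
Neurod1: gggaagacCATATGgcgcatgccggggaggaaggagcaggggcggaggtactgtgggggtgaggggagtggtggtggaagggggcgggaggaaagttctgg
Nr2e3: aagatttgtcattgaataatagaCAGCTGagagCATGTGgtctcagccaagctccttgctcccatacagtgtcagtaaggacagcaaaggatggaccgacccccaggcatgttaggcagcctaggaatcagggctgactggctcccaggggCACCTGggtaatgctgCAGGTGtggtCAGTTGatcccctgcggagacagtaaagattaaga
Crx: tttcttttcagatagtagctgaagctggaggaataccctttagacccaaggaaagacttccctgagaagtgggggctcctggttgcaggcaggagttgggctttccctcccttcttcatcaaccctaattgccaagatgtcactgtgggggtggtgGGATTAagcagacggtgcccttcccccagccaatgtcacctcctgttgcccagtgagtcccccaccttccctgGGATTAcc
The Crx window held 2 matches to TAATCC, 94 and 21 bases before the start, counted to the first base of the match. At least 1 match was present in 6.25% and at least 2 in 0.295% of the 32851 windows in the table. The Nr2e3 window held 5 E-boxes, a number reached by 1.15% of windows, whereas 66.2% held at least 1. The whole Neurod1 window held 1 E-box and 2 matches to TGCTGA, of which the printed run contains the E-box. At least 1 TGCTGA was found in 16.1% and at least 2 in 1.66% of windows. These are matches of letters, and no binding was measured.

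In cytoplasm-rich rods, Neurod1 stood out as higher after light damage, and Nr2e3 and Nrl were the members with the lowest ratios. Neurod1, a basic helix-loop-helix factor needed for photoreceptor survival, had 515 CPM in the control and 1335 CPM in the light damage library, a 2.59-fold difference (log2 ratio 1.37, interval 1.32 to 1.43). It was the only member past 2-fold in this comparison, in which 4.43% of the 8994 genes with at least 50 UMIs were past 2-fold in either direction, and its ratio lay at percentile 98.4 of these genes. Nr2e3, the orphan nuclear receptor that represses cone genes in rods, had 1895 CPM in the control and 1178 CPM after light damage, 1.61-fold lower (log2 ratio -0.69, interval -0.73 to -0.65). Nrl, the leucine zipper factor that specifies rods, had 3611 and 2611 CPM (log2 ratio -0.47, interval -0.50 to -0.44). Both lay low among all genes, at percentiles 2.25 and 6.00.

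By spliced and ambiguous UMIs the homeodomain factors stayed close to their control levels in the same rods. Crx had 512 CPM in the control and 511 CPM in the light damage library (log2 ratio 0.00, interval -0.07 to 0.06). Otx2 had 163 and 159 CPM (log2 ratio -0.04, interval -0.16 to 0.09). Both intervals include 0 and leave no room for a 2-fold difference by counting error. By unspliced UMIs Otx2 was lower in these rods, with 144 and 90 UMIs (log2 ratio -0.63, interval -1.025 to -0.239), at percentile 20.1 of the genes.

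Among the other rod members, Mef2d, a MADS-box factor that shares binding sites with CRX, had 160 CPM in the control and 281 CPM after light damage (log2 ratio 0.81, interval 0.71 to 0.92). Thrb had 61.8 and 91.0 CPM (log2 ratio 0.56, interval 0.38 to 0.74). Rorb had 381 and 310 CPM (log2 ratio -0.30, interval -0.38 to -0.22), and Esrrb, an estrogen-related receptor that maintains rods, had 190 and 217 CPM (log2 ratio 0.19, interval 0.08 to 0.30). Mef2d, Thrb and Esrrb were thus higher and Rorb lower, all within 2-fold. By unspliced UMIs in these rods Thrb went the other way, with 143 and 77 UMIs (log2 ratio -0.84, interval -1.26 to -0.43), and Esrrb was at -0.46 (interval -0.97 to 0.05). Rxrg had 0 UMIs in both libraries, which allows up to 0.402 CPM in the control and 0.471 CPM in the light damage library at 3 UMIs. The median gene with at least 50 UMIs in both libraries was itself higher by 0.16 in log2 ratio. Relative to it Crx lay at -0.17, Otx2 at -0.20 and Esrrb at 0.03, while Neurod1 lay at 1.21.

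**Figure D1:**
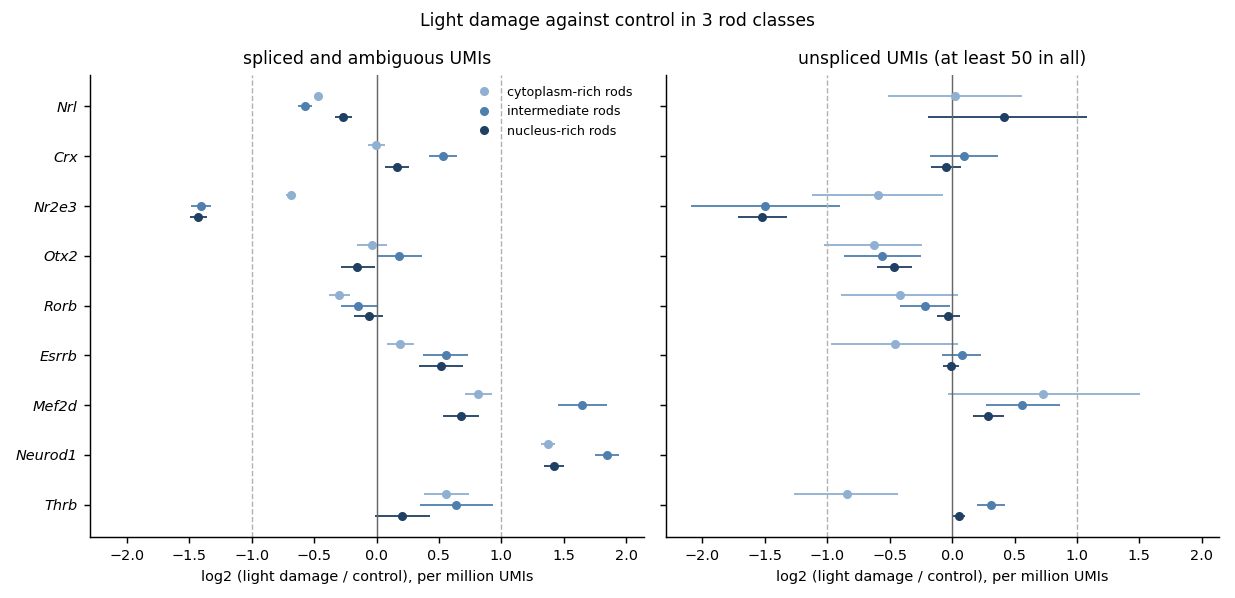
Light damage over control in cytoplasm-rich, intermediate and nucleus-rich rods, as log2 ratio (horizontal axis) of each gene, for spliced and ambiguous UMIs at the left and unspliced UMIs at the right; bars are 95% counting intervals and dashed lines mark 2-fold. Neurod1 lies between 1.37 and 1.85 and Nr2e3 between -1.43 and -0.69 in the left panel, and Nr2e3 is the only gene beyond 2-fold in the right panel.

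Nucleus-rich rods gave the same lead genes, with a lower ratio for Nr2e3. Neurod1 had 1089 CPM in the control and 2918 CPM in the light damage library, 2.68-fold higher (log2 ratio 1.42, interval 1.35 to 1.50). Nr2e3 had 1979 and 736 CPM, 2.69-fold lower (log2 ratio -1.43, interval -1.49 to -1.36), at percentile 0.790 of the genes. These were the 2 members past 2-fold, against 10.2% of the 10256 genes tested. Mef2d had 317 and 507 CPM (log2 ratio 0.68, interval 0.53 to 0.82) and Esrrb 225 and 321 CPM (log2 ratio 0.51, interval 0.34 to 0.69). Nrl had 1706 and 1418 CPM (log2 ratio -0.27, interval -0.33 to -0.20). Crx (0.16), Otx2 (-0.15), Rorb (-0.06) and Thrb (0.20) had log2 ratios closer to 0, and the intervals of Rorb and Thrb included 0. With the unspliced UMIs counted too Esrrb lay at -0.03 and Thrb at -0.07, and with nucleus-rich rods taken from 50% unspliced Crx lay at -0.03, so these 3 have no settled direction. Rxrg had 0 spliced and ambiguous UMIs in both libraries here too.

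The intermediate rods, which were deeper after light damage (median 8418.5 UMIs per droplet, against 2227 in the control), had the highest ratios of Neurod1 and Mef2d among the rod classes. Neurod1 had 746 and 2679 CPM (log2 ratio 1.85, interval 1.75 to 1.94), Mef2d 181 and 565 CPM (log2 ratio 1.65, interval 1.45 to 1.85) and Nr2e3 1909 and 719 CPM (log2 ratio -1.41, interval -1.49 to -1.33). Crx had 664 and 959 CPM (log2 ratio 0.53, interval 0.42 to 0.64), and Rorb (-0.15) and Otx2 (0.18) were closer to 0. Neurod1, Mef2d and Nr2e3 were past 2-fold, beside 22.2% of the 8238 genes tested. The part of the difference in depth in these values was not tested.

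The shares of droplets with a UMI followed the summed levels. After each droplet had been thinned to 500 UMIs, Neurod1 was found in 20.2% of cytoplasm-rich control rods (interval 18.6% to 21.9%) and in 44.4% of those after light damage (42.1% to 46.6%). In nucleus-rich rods the shares were 34.3% and 63.2%. Nr2e3 was found in 58.1% and 41.6% of cytoplasm-rich rods and in 55.7% and 28.1% of nucleus-rich rods. Thinning left out 10 control and 2 light damage droplets of the nucleus-rich class. Before thinning, the median cytoplasm-rich rod held 1 Neurod1 UMI in the control and 3 after light damage, and 5 and 3 Nr2e3 UMIs, and Neurod1 was found in 58.0% and 87.7% of these droplets, whose median depths were 2751 and 3110 UMIs. RPE droplets, which should lack both genes, held Neurod1 in 2.29% of control and 2.91% of light damage droplets after thinning and Nr2e3 in 8.40% and 2.91%, at median depths of 2635 and 7324 UMIs. All rod shares were above these. Free RNA, taken from barcodes under 50 UMIs, moved the same way as the rods, with Neurod1 at 395 and 851 CPM and Nr2e3 at 1527 and 524 CPM. Genes of the RPE put the share of free RNA between 0.572% and 2.74% of the UMIs of the 3 rod classes, and after its subtraction both genes kept their side of 2-fold in cytoplasm-rich and nucleus-rich rods. Rod markers, however, made up 0.912% of the UMIs of control RPE and 1.74% of those of control Müller glia, beside 9.94% of free RNA. That is a larger share of rod RNA than RPE genes gave for rods, so the subtraction is a limited check.

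Because the light damage library held more rods with a high unspliced share, the levels were compared within 8 narrow bins of that share. Neurod1 was higher after light damage in 8 of 8 bins, with log2 ratios between 1.07 and 1.85. Its control levels ran from 475 to 1394 CPM and its light damage levels from 1101 to 3304 CPM, and the highest light damage level was at 40% to 50% unspliced. Nr2e3 was lower in 8 of 8 bins (log2 ratios -1.94 to -0.59), with 1812 to 2160 CPM in the control and 562 to 1258 CPM after light damage. Nrl was lower in 8 of 8 bins as well (-0.66 to -0.25), on a control level that itself went down from 3905 CPM at 5% to 10% unspliced to 1285 CPM at 60% and above. Mef2d and Thrb were higher in 8 of 8 bins, with the interval above 0 in 7 for Mef2d and in 4 for Thrb. Crx had no single direction, with 2 bins whose interval lay above 0 and 2 whose interval lay below. Esrrb was higher in 6 of 8 bins, Rorb in 4 and Otx2 in 3. Only the members were counted in bins, so no share of all genes stands beside these counts of bins. Over whole classes the median gene tested was itself higher in cytoplasm-rich (log2 ratio 0.17), intermediate (0.39) and nucleus-rich rods (0.02). Bins are droplets of the same 2 libraries and are not replicates.

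**Figure D2:**
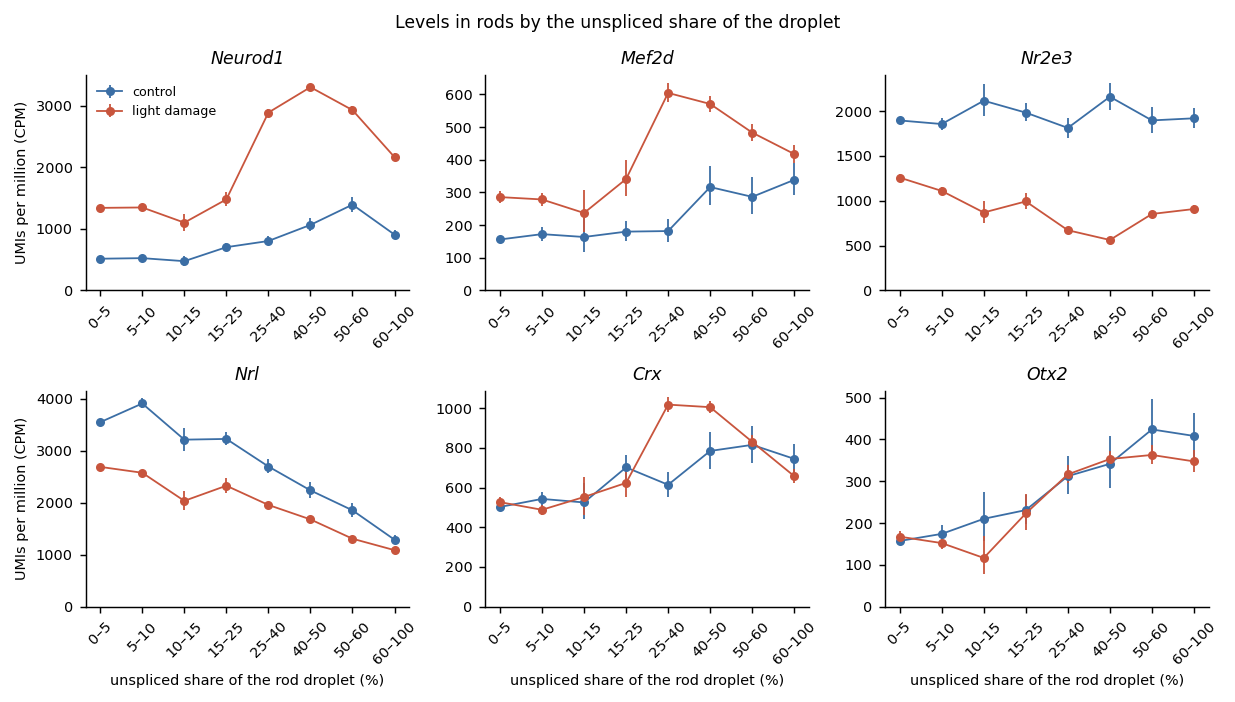
CPM (vertical axis) of 6 members in rods grouped by the unspliced share of the droplet in percent (horizontal axis, 8 bins of unequal width), control in blue and light damage in red; bars are 95% Poisson intervals. Nr2e3 stays between 1812 and 2160 CPM in the control and between 562 and 1258 CPM after light damage, and Neurod1 is higher after light damage in 8 of 8 bins.

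Unspliced UMIs, which come largely from introns of RNA not yet spliced, gave a separate reading of the same genes. Neurod1 (chr2:79452521-79456751, minus strand, GRCm38) has 1 annotated transcript of 2 exons, with 35.5% of the gene intron only, and had 0 unspliced UMIs in every class of both libraries. In nucleus-rich light damage rods this was 0 beside 26033 spliced and ambiguous UMIs, so its difference has no unspliced counterpart. Nrl (chr14:55518978-55524981), where 5.20% of the gene is intron only, had an unspliced share of 1.12% in nucleus-rich control rods. Thrb lies at the other end. It spans 377830 bases (chr14:17660261-18038090), and 95.7% of its UMIs in nucleus-rich control rods were unspliced.

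Nr2e3 was the only member past 2-fold by unspliced UMIs in nucleus-rich rods, of 8 with at least 50 such UMIs, where 9.07% of the 10564 genes tested were past 2-fold. It had 166 unspliced UMIs per 1000000 unspliced UMIs (unspliced CPM) in the control and 57.8 after light damage (log2 ratio -1.52, interval -1.71 to -1.32), close to its spliced and ambiguous ratio of -1.43. In cytoplasm-rich rods its unspliced log2 ratio was -0.59 (interval -1.12 to -0.07), from 81 and 52 UMIs, and none of the 7 members counted there was past 2-fold, where the share of all genes was 9.26%. In intermediate rods it was the only one of 7 members past 2-fold, at -1.50 (interval -2.09 to -0.90), beside 13.5% of all genes. Nr2e3 lies at chr9:59942771-59960659 on the minus strand, and 81.2% of it is intron only.

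For other members the 2 readings differed. Mef2d had 309 and 378 unspliced CPM in nucleus-rich rods (log2 ratio 0.29, interval 0.17 to 0.41), below its spliced and ambiguous ratio of 0.68. Esrrb, at -0.01 (interval -0.07 to 0.06), and Thrb, at 0.06 (0.01 to 0.10), were nearly level by unspliced UMIs. Otx2 was lower, with 267 and 193 unspliced CPM (log2 ratio -0.46, interval -0.60 to -0.32). It was also lower by unspliced UMIs in intermediate rods (-0.56, interval -0.86 to -0.25) and in all cone droplets (-0.85, interval -1.36 to -0.34). In nucleus-rich rods Crx (-0.05) and Rorb (-0.03) had intervals that included 0. The unspliced share of these genes within nucleus-rich rods was accordingly lower after light damage, from 60.4% to 47.8% for Mef2d, from 40.1% to 31.1% for Crx, from 51.5% to 40.1% for Otx2 and from 88.7% to 81.0% for Esrrb. For Nr2e3 it was 11.6% and 8.81%. The whole class had 61.1% and 55.1%, so the droplets as a whole moved the same way.

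**Figure D3:**
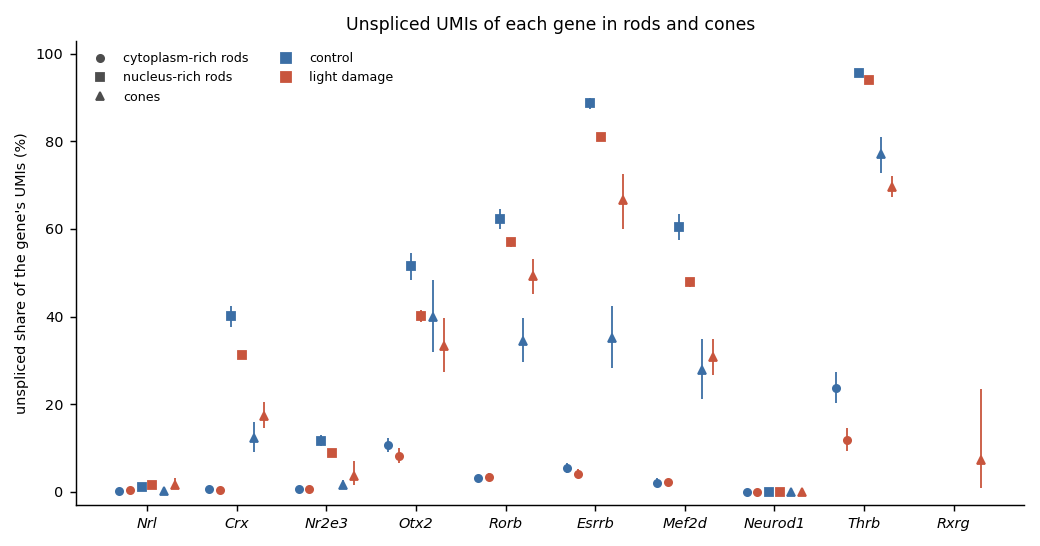
Unspliced share of the UMIs of each gene in percent (vertical axis) in cytoplasm-rich rods (circles), nucleus-rich rods (squares) and cones (triangles), control in blue and light damage in red; bars are 95% binomial intervals and points with under 20 UMIs are left out. Neurod1 is at 0% throughout, and Thrb reaches 95.7% in nucleus-rich control rods.

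Within the control library, nucleus-rich rods differed from cytoplasm-rich rods in the mixture of these RNAs, a comparison in which 49.1% of the 8677 genes tested were past 2-fold and the median gene lay at 0.69. Nrl was lower in nucleus-rich rods (1706 against 3611 CPM, log2 ratio -1.08, interval -1.15 to -1.02). Thrb (1.30), Otx2 (1.28) and Neurod1 (1.08) were past 2-fold in the other direction, so that 4 members were past 2-fold, and relative to the median gene only Nrl was. Nr2e3 differed little (log2 ratio 0.06). In the light damage library Nr2e3 was lower in nucleus-rich than in cytoplasm-rich rods (log2 ratio -0.68, interval -0.73 to -0.63), Nrl was at -0.88, and Neurod1 (1.13) and Otx2 (1.16) were past 2-fold, beside 47.3% of the 10380 genes tested.

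Cones were read with care because most cone droplets of the control library carried rod RNA. Rod markers made up 8.77% of the UMIs of control cones and 3.52% of light damage cones, against 11.5% in cytoplasm-rich control rods. Only 6 of 134 control cones and 51 of 83 light damage cones had cone marker UMIs at least 0.5 times their rod marker UMIs. These are called cones with little rod RNA, and they were set apart after the data had been seen. The cut used rod marker UMIs, so low levels of rod RNA in these cones follow in part from the choice.

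The light damage library therefore held most of the cones with little rod RNA. In its 51 cones with little rod RNA, Thrb had 634 CPM, against 91.0 CPM in its cytoplasm-rich rods (log2 ratio 2.80, interval 2.60 to 3.00). Neurod1 had 4010 against 1335 CPM (log2 ratio 1.59, interval 1.52 to 1.66). Nr2e3 had 115 against 1178 CPM (log2 ratio -3.36, interval -3.75 to -2.99) and Nrl 279 against 2611 CPM (log2 ratio -3.23, interval -3.47 to -2.99), the 2 members furthest below the rods. Because these cones were chosen for little rod marker RNA, the 2 ratios cannot be read apart from that choice. Over all 83 light damage cones Nr2e3 had 234 CPM and Nrl 596 CPM. Esrrb was lower as well, at 68.3 against 217 CPM (log2 ratio -1.67, interval -2.20 to -1.19). These 5 members were past 2-fold, beside 29.3% of the 8223 genes tested. The cones of this library were 35.4% unspliced and its cytoplasm-rich rods 5.48%. Against the intermediate rods, which were 33.1% unspliced, Neurod1 was within 2-fold (log2 ratio 0.58, interval 0.51 to 0.65), while Thrb (2.13), Nrl (-2.85), Nr2e3 (-2.64) and Esrrb (-2.40) were past 2-fold, beside 18.3% of all genes. Against cytoplasm-rich rods Crx (0.38), Mef2d (0.71), Otx2 (0.13) and Rorb (0.16) differed by less than 2-fold, the last 2 with intervals that included 0. Rxrg had 19 UMIs in these cones and 0 in 6373953 UMIs of cytoplasm-rich rods, which is 78.8-fold higher with 3 UMIs put for the 0. The counting interval of that log2 ratio starts at 5.86. Against intermediate rods, with 2 UMIs, its log2 ratio was 5.85 (interval 3.795 to 8.993). In the 6 control cones with little rod RNA, Nrl had 26, Nr2e3 9, Esrrb 0, Thrb 17 and Neurod1 118 UMIs, or 585, 202, 0, 382 and 2654 CPM.

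**Figure D4:**
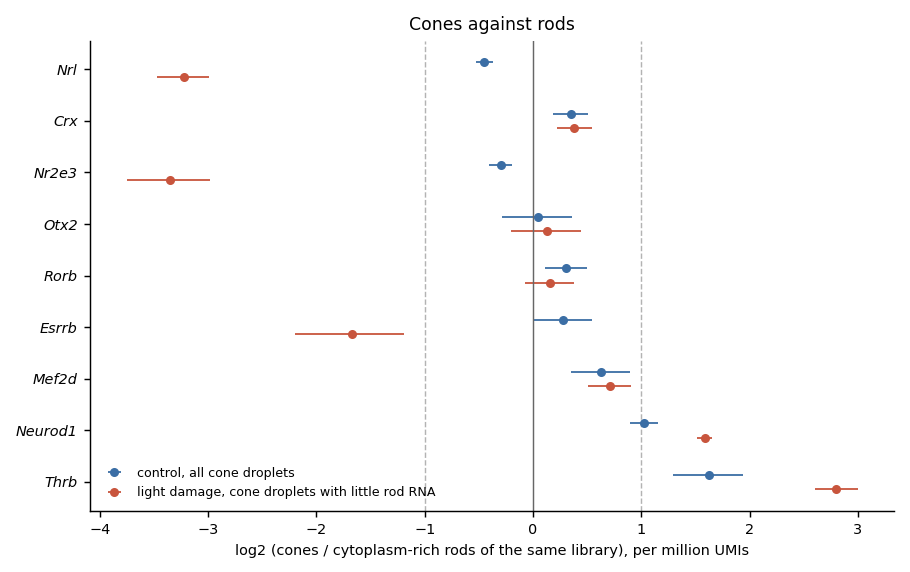
Cones over cytoplasm-rich rods of the same library as log2 ratio (horizontal axis), for all control cone droplets in blue and light damage cones with little rod RNA in red; bars are 95% counting intervals and dashed lines mark 2-fold. Nrl and Nr2e3 lie at -0.45 and -0.30 in the blue points and at -3.23 and -3.36 in the red points.

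Over all control cones the same comparison gave Thrb at 1.62 and Neurod1 at 1.03 as the 2 members past 2-fold, beside 19.2% of the 8041 genes tested, and Nrl at -0.45 and Nr2e3 at -0.30. Control cones were 26.4% unspliced and these rods 4.86%. Against control intermediate rods, at 25.5%, Neurod1 was within 2-fold (1050 and 746 CPM, log2 ratio 0.49, interval 0.34 to 0.64) and Thrb was the 1 member past it (log2 ratio 1.03, interval 0.64 to 1.42), beside 5.34% of all genes. Control cones held 30.1 Nrl UMIs per 1000 rod marker UMIs, near the 31.4 of cytoplasm-rich control rods, and light damage cones held 17.0.

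Between the libraries, all cone droplets together gave 5 of 9 members past 2-fold, where 17.0% of the 4703 genes tested were. Neurod1 had 1050 and 3766 CPM (log2 ratio 1.84, interval 1.71 to 1.98) and Thrb 191 and 528 CPM (log2 ratio 1.47, interval 1.15 to 1.80). Nr2e3 had 1539 and 234 CPM (log2 ratio -2.72), Nrl 2642 and 596 CPM (log2 ratio -2.15) and Esrrb 231 and 92.1 CPM (log2 ratio -1.33, interval -1.76 to -0.90). With unspliced UMIs included Thrb (0.87) and Esrrb (-0.56) were within 2-fold. In the same droplets 21 of the 30 rod genes were at least 2-fold lower after light damage (4.06% of all genes were) and 8 of the 12 cone genes at least 2-fold higher (12.9% of all genes). Both lists hold the markers that named the droplets and set apart the cones with little rod RNA. Their counts are therefore not independent of that naming, and all genes are not a like background for them. The part of the mixture of rod and cone RNA in these values was not tested. With cones of little rod RNA in both libraries, Neurod1 was at 0.60 (interval 0.33 to 0.88), Thrb at 0.73 (0.03 to 1.53), Nrl at -1.07 (-1.68 to -0.41) and Nr2e3 at -0.81 (-1.84 to 0.38), with 44462 UMIs in the control. Rod markers still made up 3.58% of the UMIs of these control cones and 2.17% of the light damage ones, 20 of 29 rod genes were lower (median -0.33) and 10 of 12 cone genes were lower (median -0.48), against 0.19 over all genes, and the part of this mixture was not tested. There the members past 2-fold were Nrl, Otx2 (1.36, interval -0.23 to 3.67, from 3 control UMIs) and Mef2d (1.35, interval 0.35 to 2.58), beside 27.2% of the 2408 genes tested. Rxrg had 6 UMIs in all control cones and 26 in light damage cones, 11.6 and 31.5 CPM (log2 ratio 1.45, interval 0.13 to 3.02), with 4 of the 6 control UMIs from 1 droplet. Its unspliced UMIs numbered 5 and 2, so no direction is read for it.

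Bipolar cells, which are made from OTX2-positive precursors and go on to express Otx2, gave few UMIs. Of the 5 members with at least 50 UMIs, 3 were past 2-fold, beside 12.3% of the 1048 genes tested. Otx2 had 58 UMIs in 28 control droplets and 51 UMIs in 18 deeper light damage droplets, which is 837 and 257 CPM (log2 ratio -1.70, interval -2.27 to -1.13). A single droplet held 27.6% of its control UMIs and another 17.6% of its light damage UMIs. Neurod1 had 22 and 194 UMIs, 317 and 979 CPM (log2 ratio 1.63, interval 0.99 to 2.33), and 32.5% of the light damage UMIs came from 1 droplet. Nrl had 37 and 35 UMIs (log2 ratio -1.60, interval -2.31 to -0.89), and 31 of the 35 came from 1 droplet, while a single droplet also held 11 of the 12 Nr2e3 UMIs. Rorb had 490 and 676 CPM (log2 ratio 0.46, interval -0.09 to 1.05). Bipolar markers made up 2.21% and 2.17% of the UMIs, and rod markers 2.38% and 1.40%. Among the listed genes, Neurod4, a bipolar cell relative of Neurod1, had 577 and 1509 CPM (log2 ratio 1.39, interval 0.91 to 1.90), the corepressor gene Ncor1 130 and 353 CPM (1.44) and Samd11 361 and 156 CPM (-1.21). Of 20 rod genes counted there 3 were at least 2-fold lower, where 3.53% of all genes were, namely Pde6g (-1.79), Gngt1 (-1.54) and Rcvrn (-1.11).

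Across the 3 rod classes, cones, bipolar cells, Müller glia and RPE, the members fell into different orders. Nrl was highest in cytoplasm-rich rods of both libraries and lowest in RPE, at 310 CPM in the control and 137 CPM after light damage, where its interval overlapped that of bipolar cells. Nr2e3 in the control had 1895, 1909 and 1979 CPM in the 3 rod classes, whose intervals overlapped, and less in every other class. Crx had its highest levels in nucleus-rich control rods (776 CPM) and in intermediate light damage rods (959 CPM), and 38.1 and 35.6 CPM in RPE. Otx2, which RPE also needs, had 448 CPM in control RPE and 195 CPM in light damage RPE, and its highest control level was in bipolar cells. Rorb was highest in Müller glia, at 1459 CPM (interval 1249 to 1694) in the control and 1146 CPM (1040 to 1261) after light damage. Neurod1 in the light damage library was highest in cones (3766 CPM), followed by nucleus-rich rods (2918 CPM), intermediate rods (2679 CPM), cytoplasm-rich rods (1335 CPM), bipolar cells (979 CPM), Müller glia (476 CPM) and RPE (70.5 CPM), and no neighbours in that order had overlapping intervals. Per 1000 rod marker UMIs, Neurod1 had 70.2 UMIs in bipolar cells, 62.9 in Müller glia and 14.7 in RPE of this library. Nucleus-rich rods had 73.1 and cytoplasm-rich rods 13.2. For Nrl the values were 36.6 in Müller glia, 28.7 in RPE and 12.7 in bipolar cells, beside 25.8 in cytoplasm-rich and 35.5 in nucleus-rich rods. The part of rod RNA carried into these other droplets was not tested. Thrb was highest in cones of both libraries, and in the control its interval in cones (155 to 232 CPM) overlapped that in nucleus-rich rods.

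**Figure D5:**
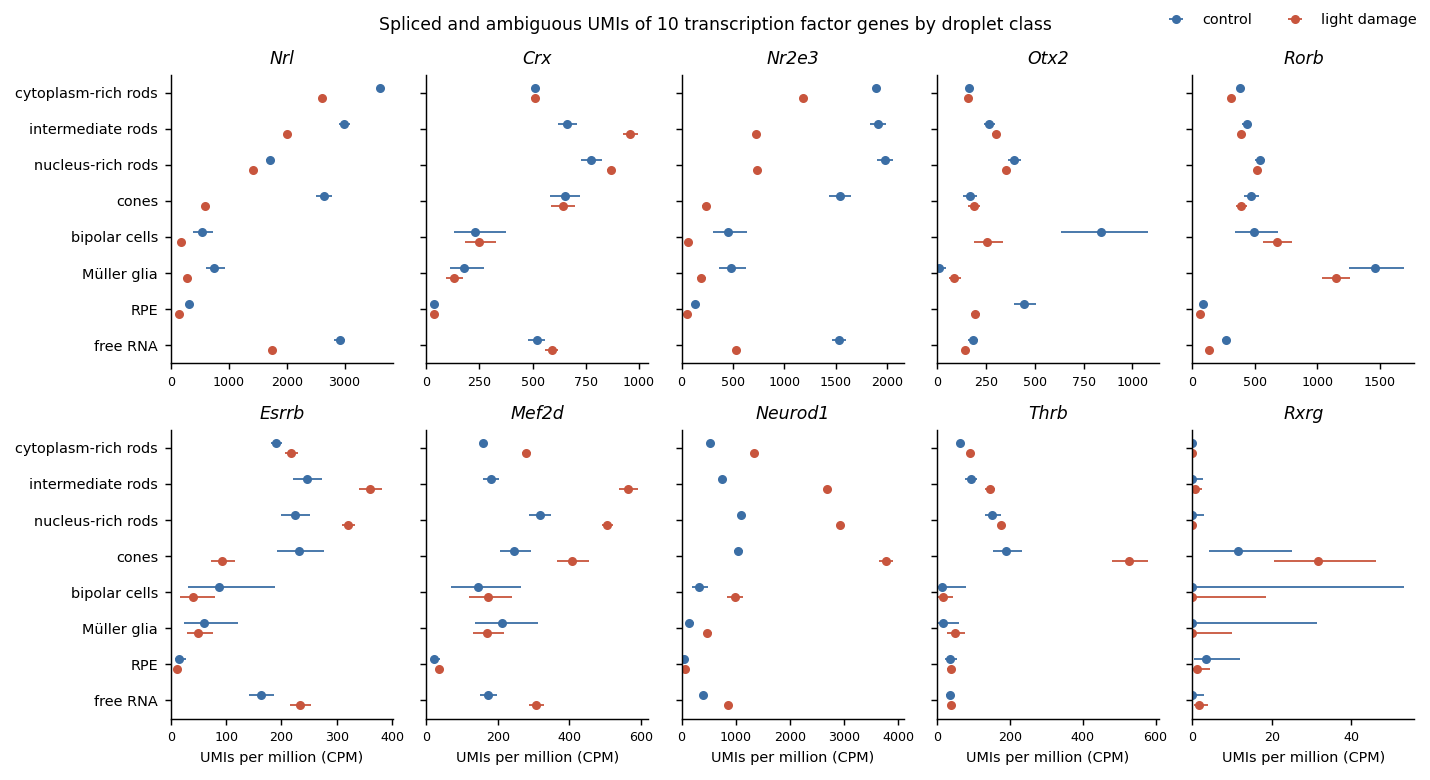
CPM (horizontal axis, a separate scale for each gene) of the 10 members in 7 droplet classes and in free RNA, control in blue and light damage in red; bars are 95% Poisson intervals. Nr2e3 lies between 1895 and 1979 CPM in the 3 control rod classes, Rorb is highest in Müller glia, and Rxrg is above 10 CPM in cones alone.

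Similarity of pattern was described over the 14 class and library groups with at least 100000 UMIs, as Pearson r of log2(CPM + 10), with no test, since the groups share 2 libraries and differ in depth. Nrl and Nr2e3 were the most alike pair of members (r = 0.973), followed by Crx and Esrrb (0.950), Nrl and Esrrb (0.913) and Mef2d and Neurod1 (0.909). Otx2 and Rorb were the least alike (r = -0.211). Among 9787 genes, the nearest to Nr2e3 was Nrl, that to Esrrb was Pde6b (0.981), a subunit of the rod phosphodiesterase, and that to Rorb was Ncam1 (0.958). The genes nearest to the others were A330094K24Rik for Nrl (0.987), D16Ertd472e for Crx (0.988), Mdp1 for Otx2 (0.911), Tet3 for Mef2d (0.974), Cnnm4 for Neurod1 (0.967) and Tax1bp1 for Thrb (0.939). Rxrg had too few UMIs.

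Rod and cone genes, the known targets of these factors, were followed with a list of 30 and a list of 12 genes. None of the 30 rod genes was past 2-fold in cytoplasm-rich rods, where 13 were higher and 17 lower with a median log2 ratio of -0.07 (0.17 over all genes tested). In nucleus-rich rods 9 were higher and 21 lower, again with none past 2-fold, and the median was -0.30 (0.02 over all genes). The rod classes differed in the direction of cone genes. Of the 12 cone genes, 6 had at least 50 UMIs in cytoplasm-rich rods and 6 in nucleus-rich rods. Of these, 3 were at least 2-fold higher in cytoplasm-rich rods, where 3.72% of all genes were, namely the cone arrestin Arr3 (1.87 and 9.57 CPM, log2 ratio 2.35, interval 1.50 to 3.31), Pde6h and Gngt2. In nucleus-rich rods 4 were, beside 6.97% of all genes, with Gnb3, the cone transducin beta subunit, at 385 and 970 CPM (log2 ratio 1.33, interval 1.20 to 1.47) joining them. In intermediate rods 8 cone genes had enough UMIs, 4 higher and 4 lower (median -0.12, and 0.39 over all genes), with none at least 2-fold higher, and Pde6h (-1.28) and Gnat2 (-1.16) were at least 2-fold lower, where 2.66% of all genes were. There 9 of the 30 rod genes were higher and 21 lower, with Fscn2 (-1.33), Pde6g (-1.15) and Rcvrn (-1.07) at least 2-fold lower. Cone markers together made up 0.0416% of the UMIs of nucleus-rich rods in the control and 0.105% after light damage, 0.0716% and 0.0883% of those of intermediate rods, and 0.0857% and 0.177% of free RNA. Arr3, Pde6h and Gngt2 had 14, 17 and 20 UMIs in cytoplasm-rich control rods and 61, 49 and 44 after light damage. In nucleus-rich rods they had 14, 5 and 7 UMIs in the control and 234, 110 and 127 after light damage. They thus reached 50 UMIs mostly through the light damage library. The cone genes named here are also markers that kept droplets out of the rod classes, so all genes are not a like background for them. The part of free cone RNA in these values was not tested.

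The wider network of co-regulators and related receptors held 36 genes, 28 of them with at least 50 UMIs in each rod comparison. In cytoplasm-rich rods 23 were higher and 5 lower (median log2 ratio 0.39), beside a median of 0.17 over all genes. Of the 28, 1 was past 2-fold, beside 4.43% of all genes, namely Samd7, a CRX target that helps to silence non-rod genes, with 125 and 366 CPM (log2 ratio 1.55, interval 1.44 to 1.66). In nucleus-rich rods 20 were higher and 8 lower (median 0.33, and 0.02 over all genes). The 3 past 2-fold, a share near the 10.2% of all genes, were Samd7 again, with 236 and 588 CPM (log2 ratio 1.32, interval 1.15 to 1.49), the clock repressor Nr1d1 with 37.1 and 139 CPM (log2 ratio 1.91, interval 1.50 to 2.36) and the deacetylase gene Hdac3 with 13.1 and 27.9 CPM (log2 ratio 1.09). Samd11, the partner of Samd7, was lower in nucleus-rich rods, with 1803 and 1267 CPM (log2 ratio -0.51, interval -0.57 to -0.44). In intermediate rods 26 were higher and 2 lower (median 0.92, and 0.39 over all genes), and 10 were past 2-fold, all higher, beside 22.2% of all genes in either direction, led by Nr1d1 (2.74). In cones 14 of the 20 network genes with enough UMIs were higher and 6 lower (median 0.51, and 0.19 over all genes). The share of all genes past 2-fold in cones was 17.0% in either direction and 12.9% higher. Past 2-fold were Fiz1 (log2 ratio 2.45), Nr1d1 (2.02), Atxn7 (1.30), Prdm1 (1.06), Mef2c (-1.03) and Samd11 (-1.48), on the mixed droplets described above. So were Six6 (1.90), Lhx4 (1.68) and Prdm8 (1.07), the 3 genes with enough UMIs in cones from a separate list of 20 retinal transcription factors. Of the 20 factors on that list, 1 had at least 50 UMIs in cytoplasm-rich rods and 3 in nucleus-rich rods, where Sox9, a factor of Müller glia, was past 2-fold on 4 and 61 UMIs (log2 ratio 1.15, interval -0.28 to 3.07).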

How the data were processed

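Single-cell RNA of mouse retina was measured in 2 libraries, control and light damage. The authors demultiplexed the reads with Cell Ranger 7.0.1 and quantified UMIs with Salmon 1.10.1 and alevin 0.8.1 on a spliced and intron index of mm10, keeping forward-strand reads. The deposited values are raw UMI counts per barcode, as spliced, unspliced and ambiguous blocks, with no filter or normalization: 30605284 UMIs in 542576 barcodes of the control and 54413601 in 944146 of the light damage library. Genes were named from GENCODE vM21 (32235 of 32285 IDs).

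Droplets were kept above the inflection point of the curve of UMIs by barcode rank, with under 10% mitochondrial UMIs. Scrublet (scanpy 1.11.5) scores removed the top 0.8% per 1000 droplets, 114 and 276. Droplets were named by the list of markers with the highest share of their UMIs (at least 0.5%, at least 3 distinct markers and at least 2 times the next list), and as rods where no such list reached 0.5% and rod markers reached 1%. These limits were set after the data had been seen. Droplets in which some list reached 0.5% with 3 markers but none could be chosen were called mixed, 27 control and 129 light damage. RPE and Müller marker lists share the gene Rlbp1, and the part of this sharing in the mixed droplets was not tested. Within each class and library the UMIs were added up. Intervals are exact, Poisson for CPM, Clopper-Pearson for shares and conditional binomial for log2 ratios (scipy 1.17.1), and a fold against 0 is a bound against 3 UMIs, given as 0 where that bound says nothing. Past 2-fold means an absolute log2 ratio of at least 1 in genes that had 50 UMIs or more in the sum of the compared groups. The scripts were tested on simulated data. All members are named, listed genes are named where past 2-fold (up to 5 each way per comparison, leaving out rod and cone genes in cones) and Samd11 was added after its values were seen. The members and gene lists were chosen with earlier results of these data known. The alternatives tried were other limits for UMIs, mitochondrial share, doublets, markers and the rod split, other scalings, unspliced UMIs included and free RNA subtracted.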

Additional observations from a re-analysis of the deposited data

Results flagged for a closer look

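Esrrb was higher after light damage in cytoplasm-rich rods (log2 ratio 0.191) and in nucleus-rich rods (0.514) and lower in cones (-1.327), each with an interval on its own side of 0. Relative to the median gene it lay at 0.03 in cytoplasm-rich rods, at percentile 51.9 of the genes tested. Among the bins of unspliced share it was higher in 6 of 8. With unspliced UMIs included it lay at -0.03 in nucleus-rich rods and -0.56 in cones. By unspliced UMIs alone it lay at -0.06 in cones (interval -0.49 to 0.38). Of its 120 spliced and ambiguous UMIs in control cones, 20.8% came from 1 droplet. The difference between rods and cones was not tested. Rod markers in the cone droplets went from 8.77% of UMIs in the control to 3.52% after light damage. Among cones with little rod RNA Esrrb had 0 of 44462 UMIs in the control and 35 of 512514 after light damage, a log2 bound of 0.02, so a difference was not detectable there.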

How the results depend on the processing

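No paired analysis was possible because each group is 1 library and the labels give no replicate numbers. For the same reason no library could be left out. In cytoplasm-rich rods 1 member and in nucleus-rich rods 2 members were past 2-fold under every alternative tried, and in these 2 comparisons 81 of 81 and 78 of 81 member ratios under the alternatives kept their sign. Against control cones, light damage cones had 5 members past 2-fold, and 3 with unspliced UMIs included or among cones with little rod RNA (the last chosen after seeing the data). For nucleus-rich against cytoplasm-rich control rods the count was 4, and 1 when centred on the median gene, which also moved the split of all genes past 2-fold from 3470 higher and 788 lower to 1769 higher and 1863 lower. Neurod1 in that comparison turned from 1.08 to -0.21 with unspliced UMIs included, since it has none. For control cones against cytoplasm-rich rods the count was 2, and 1 with under 5% mitochondrial UMIs, when centred, without ribosomal and mitochondrial genes in the total, with unspliced UMIs included or with intermediate rods as the reference (chosen after seeing the data), and 6 among the 6 cones with little rod RNA, where Esrrb had no UMI and counts by its bound. Centring moved the split of all genes past 2-fold in cytoplasm-rich rods from 335 higher and 63 lower to 224 and 118, and in bipolar cells from 92 and 37 to 173 and 16. Unspliced UMIs moved the split for nucleus-rich against cytoplasm-rich rods to 4446 and 1814. With genes from 10 UMIs in place of 50, the share of genes past 2-fold after light damage was 9.46% against 4.43% in cytoplasm-rich rods, 15.7% against 10.2% in nucleus-rich rods (1095 higher and 978 lower, against 715 and 331), 26.0% against 17.0% in cones and 29.5% against 12.3% in bipolar cells (933 and 618). It was 27.2% among cones with little rod RNA, and for control cones against rods it was 30.0% with unspliced UMIs, 33.2% with those cones and 5.34% with intermediate rods as the reference (161 higher and 111 lower), against 19.2% (1227 and 313). Depth limits Rxrg everywhere and all members in bipolar cells. Causes were not tested except where the setting itself shows them.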
